A study of Mus musculus with 4 samples.

Results

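The common gamma chain receptors were followed through 10 genes, taken by symbol from the 55367 gene rows of the count tables and chosen as a family: the shared chain Il2rg, its kinase Jak3, the partner chains Il2rb, Il2ra, Il15ra, Il7r, Il21r and Il4ra, the ligand Il15 and the feedback gene Cish. All 10 were found, and all 10 passed the filter on low counts. The libraries were made from polyadenylated RNA, after a sort that the labels give as CD45.2 and CD8, out of B16-F10 melanoma grown in mice. There were 4 libraries, 2 titled WT and 2 titled KO, and nothing in the labels said whether those of a group came from separate animals, so that p-values measure only the spread between them. The design text of the series lists Satb1 F/F mice with either ThPOK-cre, which is active from the commitment of thymocytes to the CD4 lineage, or E8I-cre, which is active in CD8 lineage cells, beside WT mice. The labels did not say which Cre the libraries titled KO carried, and gave no age, sex or strain.

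The common gamma chain is the receptor subunit that the receptors for IL-2, IL-4, IL-7, IL-9, IL-15 and IL-21 share. Each cytokine is recognized by a private chain, the gamma chain brings in the kinase JAK3, the partner chain brings in JAK1, and the signal runs mainly through STAT5, STAT3 or STAT6. IL-2 and IL-15 use the same beta chain with the gamma chain and differ in their alpha chains, of which IL-15Rα holds IL-15 on the surface of myeloid cells for presentation to neighboring lymphocytes. In T cells these receptors sustain survival and growth, and myeloid cells use several of the same chains.

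Gene counts per library ranged from 4017875 to 5382915. Satb1, the gene named as the target, gave 7 and 5 counts for WT against 131 and 55 for KO, higher in the libraries labeled KO but not past the threshold (edgeR adjusted p = 0.115). Relative to 100 counts of the T cell markers described next, it had 2.59 and 1.10 for WT and 1.20 and 0.829 for KO, which overlapped. Satb1 thus does not check the labels, and each direction below is that of the libraries as labeled. Against the sort, a list of 12 macrophage or monocyte markers held 2.001% and 2.39% of gene counts in WT 1 and WT 2. It held less in both libraries labeled KO, 0.756% in KO 1 and 1.69% in KO 2, with 0 of the 12 past the threshold. A list of 10 T cell markers (the CD3 chains, Cd8a, Cd8b1, the T cell receptor constant genes and Lck) held 0.00672% and 0.0106% in WT 1 and WT 2. The T cell list held 0.244% and 0.123% in KO 1 and KO 2. Melanoma markers made up 0.0217% to 0.0254% of WT and 0.125% to 0.232% of KO gene counts. Of 6 fibroblast or endothelium markers 4 were tested and 3, the collagen genes, were past the threshold and higher, and the list made up 0.00207% and 0.00192% of WT 1 and WT 2, 0.136% of KO 1 and 0.0198% of KO 2. In such a mixture, fewer cells of a type and less RNA per cell cannot be told apart. Sex-linked genes also split the libraries as the labels do, with Ddx3y at 0 and 0 counts in WT and 188 and 81 in KO. Sex and group thus cannot be told apart for any gene below.

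The question put to these genes was whether the receptor system differed between the libraries labeled KO and WT. Il2rb rose, and it was the single member past the threshold of an adjusted p of 0.05 in the edgeR quasi-likelihood test, where 0.574% of the 11837 genes tested were called, 0.549% higher and 0.0253% lower in KO. Il2ra, Cish and Il21r stood higher in both libraries labeled KO without passing, the shared chain Il2rg moved little, and Il7r, Il15, Il15ra and Il4ra had fold changes below 0. Of the 10 genes 5 had a log2 fold change above 0, as did 52.6% of all genes tested. Their values ran from -0.93 to 4.06 with a median of 0.26, against a median of 0.05 over all genes tested. The libraries of the groups did not overlap for 5 of the 10 genes, 4 of them higher and 1 lower in KO, where the same held for 47.9% of all genes tested, 25.3% higher and 22.6% lower. At an unadjusted p under 0.05 there were 3 of the 10, all higher in KO, beside 13.7% of all genes, 9.44% higher and 4.23% lower. For a single gene, exact permutation of the labels of 2 and 2 libraries reaches 0.333 at best and was not used.

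**Figure D1:**
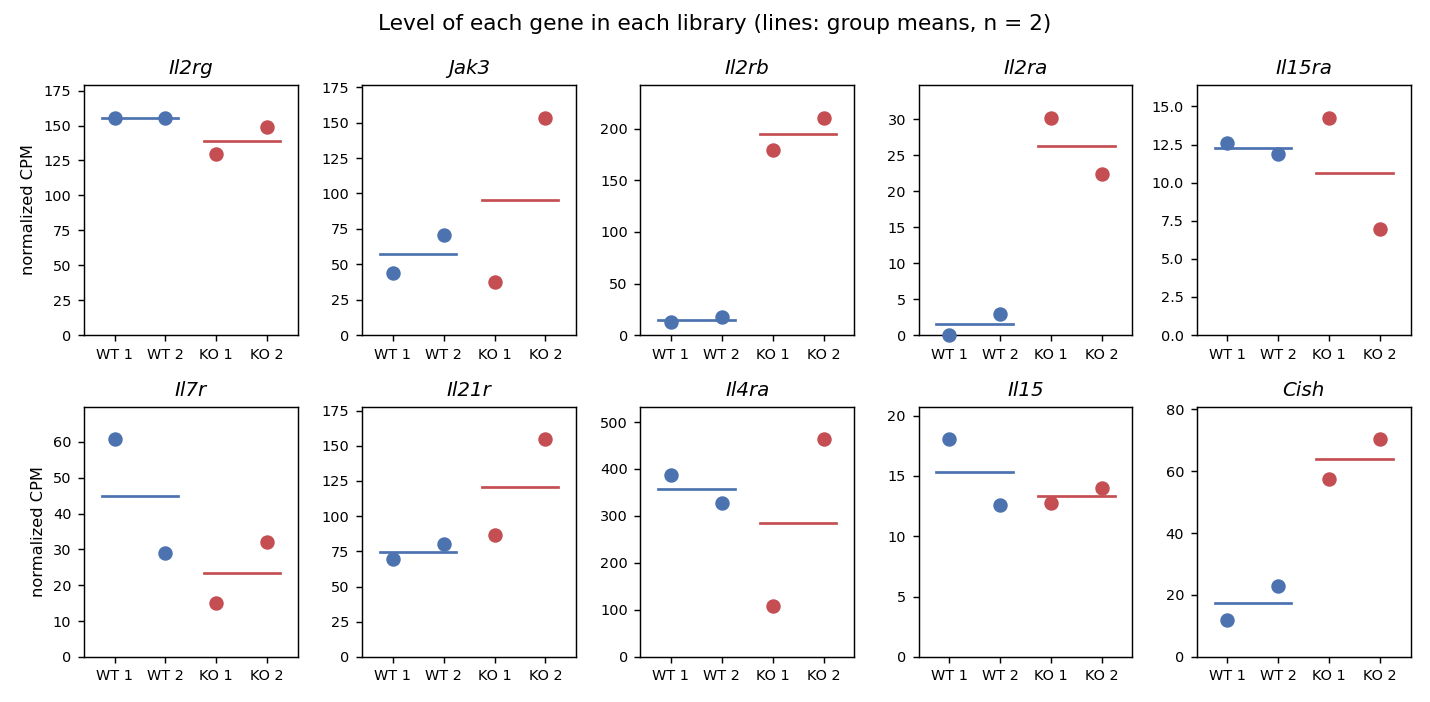
Level of each of the 10 genes in each library, as normalized CPM (CPM scaled by TMM factors, y axes from 0 and different for each gene). Points are libraries and lines are group means; Il2rb, Il2ra, Cish and Il21r lie higher in both libraries labeled KO, and Il4ra and Jak3 differ most between KO 1 and KO 2.

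Il2rg (ENSMUSG00000031304.18, chromosome X, 101264378 to 101268255, minus strand, GRCm38/mm10) encodes the shared chain. It had 518 and 628 counts in WT 1 and WT 2 and 681 and 853 in KO 1 and KO 2, or 155.7, 155.5, 129.6 and 148.9 normalized CPM, that is, CPM on library sizes scaled by TMM factors. Both libraries labeled KO lay just under both labeled WT, by less than the error of the fit: the log2 fold change was -0.16 with a standard error (SE) of 0.41 (edgeR adjusted p = 0.895). The sign turned with library totals in place of TMM factors, where the log2 fold change was 0.17 and the median of all genes moved from 0.05 to 0.39. Gm20489 covers 30.5% of the exonic bases of Il2rg on the same strand, and was itself listed at 0 in all 4 libraries; what became of reads in the shared bases is not stated. Il2rg is X-linked, and sex-linked genes split the libraries as the labels do, with Xist at 435 and 216 counts in WT and 0 and 3 in KO, so that sex and group cannot be told apart. Over the 4 libraries, the genes whose centered log2 CPM lay closest to that of Il2rg were Aimp2, Dus3l and Rnf123, at Euclidean distances of 0.027, 0.032 and 0.034. Many profiles are alike over so few libraries.

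Jak3 (ENSMUSG00000031805.17, chromosome 8, 71676296 to 71690575, plus strand), the kinase bound to the shared chain, had 43.9 and 70.3 normalized CPM in WT 1 and WT 2 and 37.5 and 154 in KO 1 and KO 2. KO 1 was the lowest library and KO 2 the highest, a difference of 4.10 times within the group. The log2 fold change was 0.74 ± 0.63 (SE) (edgeR adjusted p = 0.634), and it became -0.65 without KO 2.

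Il2rb (ENSMUSG00000068227.9, chromosome 15, 78479256 to 78495271, minus strand) encodes the beta chain of the IL-2 and IL-15 receptors. It had 42 and 70 counts in WT 1 and WT 2 and 941 and 1208 in KO 1 and KO 2. The mean normalized CPM was 14.98 ± 3.33 for WT and 195 ± 22.5 for KO (SD, n = 2 each). The groups lay far apart and the libraries within each were close, with a ratio of 1.37 in WT and 1.18 in KO. The log2 fold change was 3.70 ± 0.47 (SE) (edgeR adjusted p = 0.0221), a fitted fold of 13.0. Without WT 1 it was 3.44 and no longer past the threshold (edgeR adjusted p = 0.0991), and over 15 alternatives the adjusted p ranged from 7.09e-11 to 0.0991. The T cell markers, 9 of 10 past the threshold and all in the same direction, moved with Il2rb. Per 100 counts of the T cell list there were 15.6 and 15.5 counts of Il2rb in WT 1 and WT 2 and 8.62 and 18.2 in KO 1 and KO 2, values that overlapped. NK cells also carry this chain. Their 5 markers together held 0.00124% and 0.00307% of WT and 0.0214% and 0.00732% of KO gene counts. By gene (WT 1, WT 2, KO 1, KO 2), Klrk1 was at 47, 114, 805 and 347 counts, Klre1 at 0, 7, 104 and 10, Eomes at 3, 6, 44 and 37, Ncr1 at 0, 1, 4 and 0 and Klrb1c at 0, 3, 1 and 0. The part of NK cells in the values of Il2rb was not tested.

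Il2ra (ENSMUSG00000026770.5, chromosome 2, 11642807 to 11693193, plus strand) encodes CD25, the chain that gives the IL-2 receptor its high affinity. It had 0 and 12 counts in WT 1 and WT 2 and 159 and 128 in KO 1 and KO 2, or 0, 2.97, 30.3 and 22.3 normalized CPM. Both libraries labeled KO lay above both labeled WT. The log2 fold change was 4.06 ± 0.99 (SE) and missed the threshold (edgeR adjusted p = 0.129). It was past it without WT 2, where the fitted value of 9.95 depends on the prior count, and without KO 2, where it was 4.21 (edgeR adjusted p = 0.000337 and 0.0218). Over 15 alternatives the adjusted p ranged from 1.9e-05 to 0.160. Against the floor of 3 counts in WT 1, which is 0.902 normalized CPM, the mean of the libraries labeled KO was at least 29.2-fold higher, and it was 17.7 times the mean of WT 1 and WT 2. Relative to 100 counts of the T cell list, Il2ra had 0 and 2.65 in WT 1 and WT 2 and 1.46 and 1.93 in KO 1 and KO 2, and the groups overlapped. Foxp3, a marker of regulatory T cells, which carry much CD25, had 146 and 156 counts against 120 and 132, while Ctla4 had 17 and 49 against 425 and 278. The 4 markers of such cells together held 0.00510% and 0.00573% of WT and 0.0230% and 0.0135% of KO gene counts. Tnfrsf18 had 40 and 34 counts against 397 and 299, and Ikzf2 had 2 and 5 against 89 and 16. A CD4 T cell list of 3 genes held 0.00911% and 0.00589% of WT and 0.00297% and 0.00340% of KO gene counts. Cd4 itself had 6 and 30 counts in WT and 3 and 35 in KO. The part of regulatory T cells in the values of Il2ra was not tested.

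Shares of raw counts were taken within each library, so that no scaling between libraries enters. They are not corrected for gene length and come from a mixture of cells, so they can be compared between libraries but do not give the make-up of the receptor. Per kilobase, Il2rg lay above Il2rb in both libraries labeled KO (54.3 against 41.8 normalized CPM per kb in KO 1, 62.4 against 49.2 in KO 2). Of the counts on Il2ra, Il2rb and Il2rg together, Il2rb took 7.5% in WT 1 (exact Clopper-Pearson 95% interval 5.46% to 10.003%) and 9.86% in WT 2 (7.77% to 12.3%), and 52.8% in KO 1 (50.5% to 55.2%) and 55.2% in KO 2 (53.1% to 57.3%). Il2ra took 0% in WT 1, with an upper bound of 0.657%, and 1.69% in WT 2. Its share was 8.93% in KO 1 and 5.85% in KO 2. Il2rg took the rest, 92.5% and 88.5% for WT but 38.2% and 39.0% for KO. Libraries of a group had overlapping intervals for Il2rb and none between the groups. For Il2ra the intervals did not overlap within either group. In WT 2 its interval was 0.876% to 2.93%, in KO 1 7.64% to 10.3% and in KO 2 4.90% to 6.91%. The intervals account for counting alone, as reads were not collapsed to molecules.

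**Figure D2:**
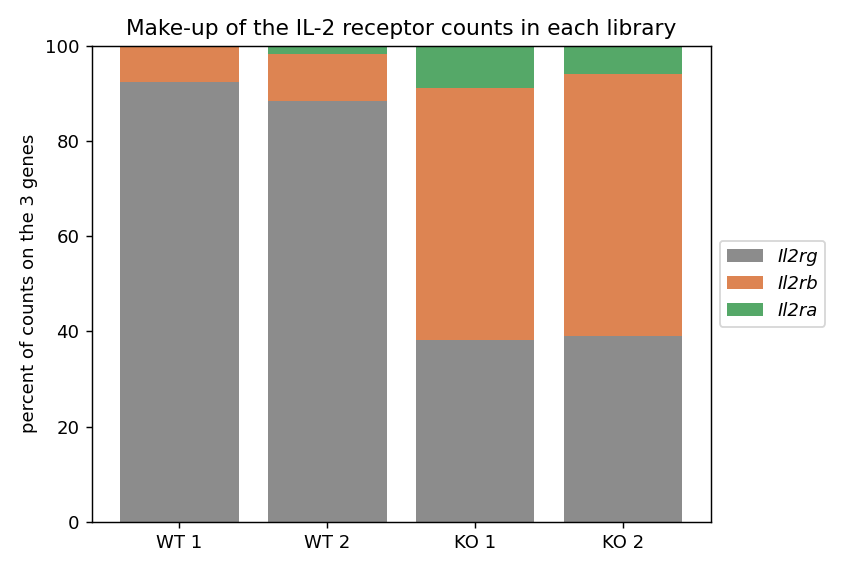
Percent of the counts on Il2rg, Il2rb and Il2ra that each gene took in each library (stacked bars, y axis from 0 to 100). Il2rb took 7.5% and 9.86% for WT and 52.8% and 55.2% for KO.

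Il15 and Il15ra, the ligand and the chain that presents it, were measured at low levels in all libraries. Il15 (ENSMUSG00000031712.10, chromosome 8, 82331632 to 82403222, minus strand) had 60 and 51 counts for WT and 67 and 80 for KO, or 18.0, 12.6, 12.7 and 14.0 normalized CPM. Il15ra (ENSMUSG00000023206.16, chromosome 2, 11705290 to 11734317, plus strand) had 42, 48, 75 and 40 counts, or 12.6, 11.9, 14.3 and 6.98 normalized CPM. The groups overlapped for both genes. Their log2 fold changes were -0.20 ± 0.54 and -0.21 ± 0.60 (SE) (edgeR adjusted p = 0.901 and 0.908), and both turned positive with library totals, Il15 also without WT 1 and Il15ra without KO 2. Il15 took 58.8%, 51.5%, 47.2% and 66.7% of the counts on the pair in WT 1, WT 2, KO 1 and KO 2, and the exact Clopper-Pearson intervals of KO 1 (38.8% to 55.7%) and KO 2 (57.5% to 75.0%) did not overlap, whereas that of WT 1 (48.6% to 68.5%) overlapped both. Il15ra lies 12.1 kb beyond Il2ra on the same strand with 0 annotated genes between them, and these neighbors had log2 fold changes of -0.21 and 4.06.

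Il7r (ENSMUSG00000003882.5, chromosome 15, 9505788 to 9530176, minus strand), the chain of the IL-7 receptor that TSLP also uses, had 202 and 117 counts in WT 1 and WT 2 and 79 and 183 in KO 1 and KO 2. This was 60.7, 29.0, 15.03 and 31.9 normalized CPM, so that KO 2 lay above WT 2 and the groups overlapped. The log2 fold change was -0.93 ± 0.56 (SE) (edgeR adjusted p = 0.488) and ran from -1.61 to -0.34 when single libraries were left out. Its direction was opposite to that of the T cell list. Relative to 100 counts of that list, Il7r had 74.8 and 25.8 in WT and 0.724 and 2.76 in KO, on a scale where 95.5% of all genes tested were lower in both libraries labeled KO.

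Il21r (ENSMUSG00000030745.9, chromosome 7, 125603429 to 125633570, plus strand), the private chain of IL-21, had 69.4 and 80.0 normalized CPM in WT 1 and WT 2 and 86.6 and 155 in KO 1 and KO 2. The groups did not overlap, but KO 1 was nearer to WT 2 than to KO 2. The log2 fold change was 0.69 ± 0.45 (SE) (edgeR adjusted p = 0.524) and was 0.18 without KO 2. Il4ra (ENSMUSG00000030748.9, chromosome 7, 125552120 to 125579474, plus strand), the chain that binds IL-4, lies 24 kb before Il21r on the same strand with 0 annotated genes between them. It was the member with the most counts in 3 of the 4 libraries, at 388, 327, 109 and 463 normalized CPM in WT 1, WT 2, KO 1 and KO 2. KO 2 was the highest library and KO 1 the lowest, 4.26 times apart, and the log2 fold change of -0.32 ± 0.64 (SE) (edgeR adjusted p = 0.855) became 0.37 without KO 1 and -1.75 without KO 2, where it was past the threshold (edgeR adjusted p = 0.0199, in a range up to 0.99995 over 15 alternatives). The share of the macrophage or monocyte list also differed between those libraries, at 0.756% in KO 1 and 1.69% in KO 2, and its part in the spread of Il4ra and Jak3 was not tested. Gm44876 covers 9.51% of the exonic bases of Il4ra on the other strand.

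**Figure D3:**
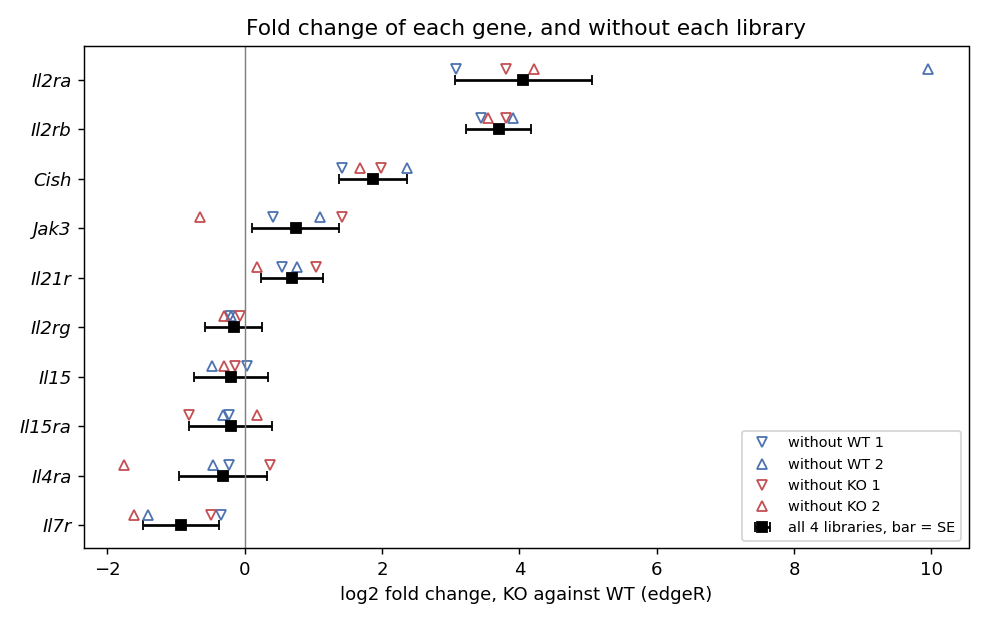
Log2 fold change of KO against WT for each of the 10 genes in edgeR (black squares, bars are SE), with the values when a single library is left out (open triangles). Il2rb stays between 3.44 and 3.90, whereas Jak3, Il4ra, Il15 and Il15ra change sign; the value of 9.95 for Il2ra arises without WT 2, when the remaining library labeled WT has 0 counts.

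Cish (ENSMUSG00000032578.7, chromosome 9, 107296026 to 107302784, plus strand) encodes a SOCS family protein that STAT5 induces and that dampens cytokine and T cell receptor signals. It had 40 and 93 counts in WT 1 and WT 2 and 303 and 403 in KO 1 and KO 2, or 17.5 ± 7.79 (SD, n = 2) against 64.0 ± 8.97 (SD, n = 2) normalized CPM. Both libraries labeled KO lay above both labeled WT. The log2 fold change of 1.86 ± 0.49 (SE) missed the threshold (edgeR adjusted p = 0.156), while DESeq2 gave 1.86 and an adjusted p of 0.0423, and over 15 alternatives the adjusted p ranged from 0.0206 to 0.99995. Relative to 100 counts of the T cell list, Cish had 14.8 and 20.5 in WT 1 and WT 2 and 2.78 and 6.07 in KO 1 and KO 2. On that scale 95.5% of all genes tested were lower in both libraries labeled KO. Gm17040 and Gm17041 cover 4.07% and 7.46% of its exonic bases on the other strand, and since no source used here says whether counting used strand, reads in those shared bases cannot be told apart.

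The windows around the start sites were searched for the STAT pattern TTCNNNGAA, which reads the same on both strands. RefSeq windows of GRCm38.p6, from 250 bases before to 50 after the start, were found for 8 of the 10 genes, all but Il2rb and Il15. The pattern was present in the windows of Cish and Il7r, against 8.29% of all 32817 windows, and the longer pattern TTCNNNNGAA was present in the windows of none of the 8 genes, against 6.94%. Both windows are shown 5′ to 3′ on the strand of the gene because they carry the pattern, which is in capitals. That of Cish is chr9:107296409-107296708 on the plus strand, with matches beginning at bases 1 and 12 of the transcript, and that of Il7r is chr15:9529827-9530126 on the minus strand, with a match that begins 142 bases before the start.
Cish: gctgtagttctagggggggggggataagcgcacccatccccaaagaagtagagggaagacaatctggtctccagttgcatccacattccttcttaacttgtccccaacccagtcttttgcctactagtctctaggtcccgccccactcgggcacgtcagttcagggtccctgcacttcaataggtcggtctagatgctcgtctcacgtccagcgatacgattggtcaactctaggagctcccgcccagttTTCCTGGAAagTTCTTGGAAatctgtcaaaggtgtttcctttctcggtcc
Il7r: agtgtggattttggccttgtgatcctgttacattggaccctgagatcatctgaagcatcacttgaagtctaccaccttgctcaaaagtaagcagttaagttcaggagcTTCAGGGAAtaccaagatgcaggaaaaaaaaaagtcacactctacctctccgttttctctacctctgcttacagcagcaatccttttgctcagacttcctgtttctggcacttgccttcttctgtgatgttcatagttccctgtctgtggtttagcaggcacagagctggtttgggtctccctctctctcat
Neither gene passed the threshold. A match is a description of the sequence and shows no binding.

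Scaled to length, as normalized CPM per kilobase of merged exons, the order of the members differed between the groups. In the libraries labeled WT, Il2rg had the highest mean level, 65.2 ± 0.0483 (SD, n = 2), followed by Il4ra with 59.6 ± 7.14, Il21r with 22.5 ± 2.25 and Jak3 with 10.7 ± 3.50. Il7r, Il15, Il2rb, Il15ra and Cish followed between 9.62 and 2.73, and Il2ra was lowest with 0.260 ± 0.368. In the libraries labeled KO, Il2rg again had the highest mean, 58.3 ± 5.71 (SD, n = 2), with Il4ra at 47.6 ± 41.8 and Il2rb at 45.5 ± 5.24. Il2rb thus stood at place 7 in WT and place 3 in KO. The places of Il2ra, 10 and 9, were at the low end in both groups. Of the 9 pairs of neighbors in each order, the values of single libraries overlapped for 3 in WT and 7 in KO, among them the top 5 pairs in KO, so that the order there is not resolved. Dividing by the longest transcript instead put Il2rb at place 9 in WT and place 4 in KO.

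The members were also set against marker lists, whose own levels differ between the groups and move every gene on that scale. Per 100 counts of the T cell list, 8 of the 10 genes were lower in both libraries labeled KO than in both labeled WT, as were 95.5% of all genes tested, and Il2rb and Il2ra overlapped. Against 100 counts of the macrophage or monocyte list, 8 were higher in both libraries labeled KO, where 66.2% of all genes tested were, and Il15ra and Il7r overlapped. Against 100 counts of a conventional dendritic cell list of 8 genes, which held 0.0502% to 0.0639% of gene counts with overlapping groups, 4 were higher in KO (Il2rb, Il2ra, Il21r and Cish), beside 33.8% of all genes tested, and 6 overlapped. Irf8 and Itgax led those 8 genes, with 1923, 1698, 1096 and 2708 counts and 208, 339, 256 and 440 (WT 1, WT 2, KO 1, KO 2). Flt3, Zbtb46, Xcr1 and Clec9a had 0 to 51 counts in any library. Cd209a and Batf3 had log2 fold changes of 2.63 and -1.48, not past the threshold. A list of 7 mature dendritic cell genes, led by Cd83 and Ccr7, held 0.0126% and 0.0292% in WT 1 and WT 2 and 0.0627% and 0.116% in KO 1 and KO 2. Of these genes only Ccr7 was past the threshold, and Cd83 overlapped (136, 286, 208 and 756 normalized CPM in WT 1, WT 2, KO 1 and KO 2). Fscn1, Ccl22 and Cacnb3 had log2 fold changes of 3.33, 2.87 and 3.07, Il4i1 had 0.09, and Lamp3 had 0 or 1 counts in any library. Against 100 counts of that list, Il2rb and Il2ra were higher in both libraries labeled KO, as were 2.62% of all genes tested, 7 members were lower, as were 71.6%, and Cish overlapped. The mast cell and basophil list had 0 to 3 counts in any library. Neither the T cell nor any other cell source of the receptor counts was tested.

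**Figure D4:**
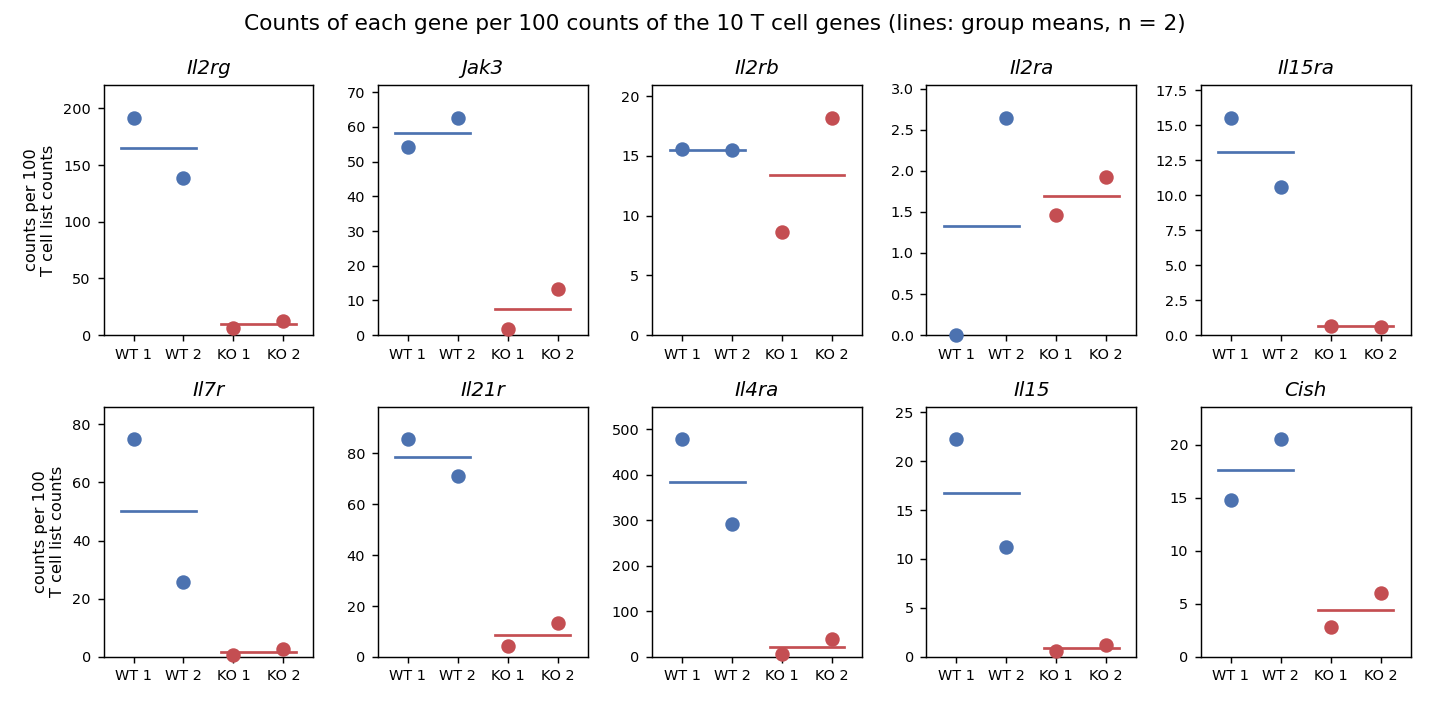
Counts of each of the 10 genes per 100 counts of the 10 T cell markers, by library (y axes from 0 and different for each gene; lines are group means). Il2rb and Il2ra overlap between the groups, and the other 8 genes lie lower in both libraries labeled KO, as do 95.5% of all genes tested.

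The rest of the pathway was followed through 37 genes in 6 lists, of which 30 were tested. None of the 30 was past the threshold in edgeR, in either direction, and none of the 36 that entered DESeq2 was past it there. In edgeR 2 of the 30 had an unadjusted p under 0.05 (Pim2, higher, and Crlf2, lower), where 13.7% of all genes tested had. The other ligands (Il2, Il4, Il7, Il9, Il21 and Tslp) were near the floor, with 0 to 10 counts in any library, and 0 of the 6 passed the filter on low counts. Of the partner chains, Il13ra1, which pairs with Il4ra outside lymphocytes, had a log2 fold change of 0.65 (SE 0.44). Crlf2, which pairs with Il7r for TSLP, had 134 and 72.6 normalized CPM in WT 1 and WT 2 and 43.2 and 30.2 in KO 1 and KO 2, a log2 fold change of -1.49 ± 0.48 (SE) (edgeR adjusted p = 0.231).

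Among the kinases and STATs, 5 of 6 had fold changes above 0, with a median of 0.17 and a range from -0.35 to 0.77. Stat3 and Stat6, the members with the highest levels, had log2 fold changes of 0.54 (SE 0.44) and 0.11 (SE 0.54), and Stat5a, which carries the IL-2 signal, had 33.7 and 32.7 normalized CPM in WT 1 and WT 2 and 35.6 and 34.6 in KO 1 and KO 2. Stat5a was nearly level over the 4 libraries. Stat5b varied more, with 55.01 and 77.3 normalized CPM in WT 1 and WT 2 and 55.4 and 99.3 in KO 1 and KO 2. The groups overlapped for Stat5b. Jak1 had 105.5 and 98.8 normalized CPM in WT 1 and WT 2 and 168.01 and 180.1 in KO 1 and KO 2. The groups did not overlap for Jak1, whose log2 fold change was 0.77 (SE 0.41, edgeR adjusted p = 0.446). Of the 6 inhibitors, 3 were above and 3 below 0. Ptpn6, the phosphatase SHP-1, had a log2 fold change of -0.60 (SE 0.52) and Socs3 one of 0.09 (SE 0.57). Of the 8 adaptors and PI3K genes 5 were above 0, with a median of 0.19. Of these Grb2 had a log2 fold change of -0.61 (SE 0.44) and Akt1 one of 0.24 (SE 0.50). Of the 8 survival and growth targets 4 were above 0. Mcl1 had -0.42 (SE 0.48) and Bcl2l1 -0.62 (SE 0.64). Pim2, a STAT5 target kinase named after its value was seen, had 11.7 and 4.95 normalized CPM in WT 1 and WT 2 and 29.3 and 30.7 in KO 1 and KO 2, with a log2 fold change of 1.85 ± 0.58 (SE) (edgeR adjusted p = 0.223). Without KO 2, the log2 fold change of Bcl2l1 was -2.07, and that of Ptpn2, named after its value was seen, was 1.65.

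**Figure D5:**
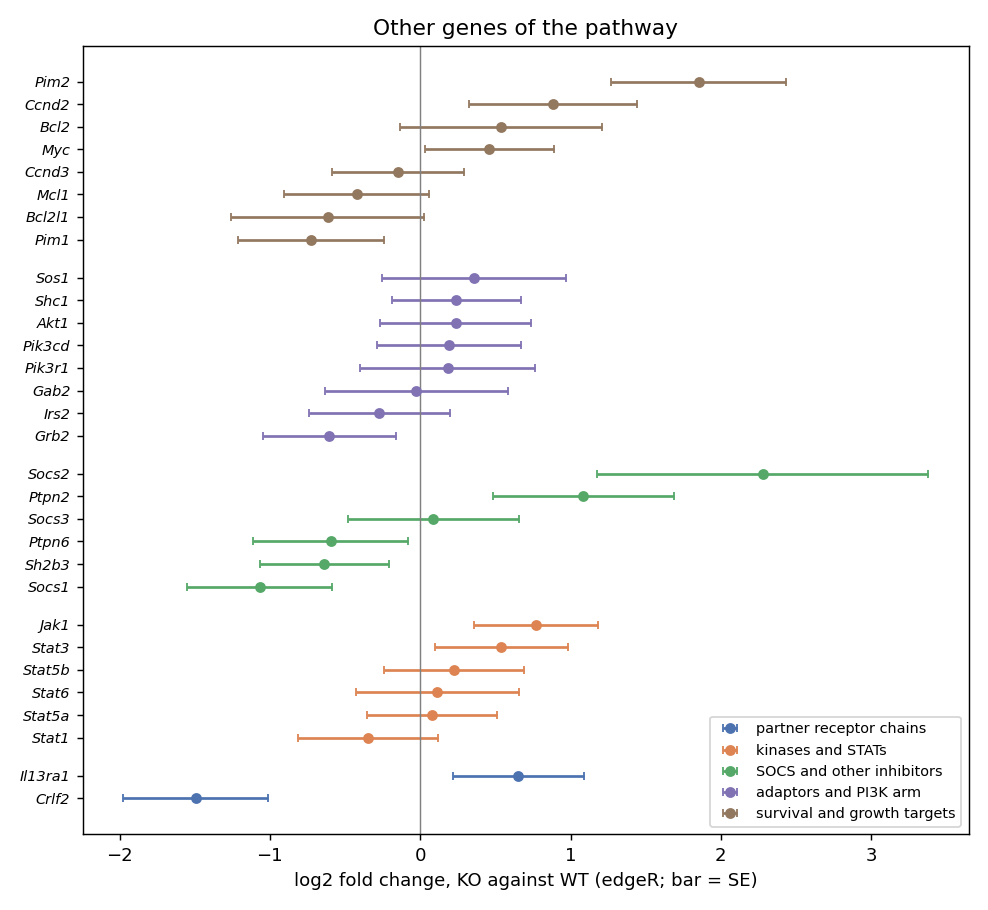
Log2 fold change of KO against WT in edgeR for the 30 tested genes of the pathway outside the 10 members, grouped by role (points, with SE as bars). The values run from Crlf2 at -1.49 to Socs2 at 2.28, and none was past the threshold.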

How the data were processed

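Per the labels, libraries were prepared with the NEBNext Ultra II kit. According to the submitters' processing notes and the study's methods for RNA-seq, the authors aligned reads to mm10 with HISAT2 2.1.0 and counted them with HTSeq 0.11.0. They deposited raw read counts per gene symbol, without normalization. The annotation, the strand setting and any trimming are not given in the sources used here. Reads on genes made up 20.5% to 28.8% of each table, and the summary rows entered neither the library sizes nor the tests. Positions and lengths came from GENCODE M21 (GRCm38), which matched 96.3% of the symbols.

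The primary model was made by edgeR 4.0.16 under R 4.3.3, with filterByExpr (minimum count 10, minimum total 15), TMM factors and the quasi-likelihood test of KO against WT. The 4 libraries entered together, with no covariate beside group. Two-sided p-values were adjusted by the Benjamini-Hochberg method over the 11837 genes tested, with a threshold of 0.05. Fold changes used a prior count of 0.125, and the SE was the size of the log2 fold change divided by the square root of F. The scripts were tested on simulated data. DESeq2 1.42.0 and the other alternatives are described in the closing section. Libraries of a group differed by more than sampling noise, with a chi-square per degree of freedom of 24.4 for WT and 76.3 for KO. In log2 CPM, KO 2 had a correlation of 0.889 with WT 2 and of 0.859 with KO 1, and WT 1 and WT 2 had one of 0.935. Plots were drawn with matplotlib 3.10.9.

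The members and lists were chosen with earlier results of these data known. Besides the 10 members, the genes named were those of each pathway list past the threshold and its 2 with the highest mean normalized CPM, up to 3 markers per cell type, and the 3 profiles closest to Il2rg. Other names were chosen after their values were seen.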

Additional observations from a re-analysis of the deposited data

How the results depend on the processing

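The 15 alternatives to the edgeR fit were other scaling factors, other filters, DESeq2, the likelihood ratio test, a replicate block, thinned counts, a prior count of 2, scaling without antigen receptor, ribosomal protein and mitochondrial genes, and each library left out. The main count of 68 genes past the threshold became 134 with library totals, 583 without a filter, 374 in DESeq2, 556 in the likelihood ratio test and 113 to 1248 when single libraries were left out (113 without WT 1, 228 without WT 2, 123 without KO 1 and 1248 without KO 2). The count of members, 1 in the primary model, became 3 without a filter, 3 in DESeq2 and 3 in the likelihood ratio test, where Il2ra and Cish joined Il2rb, and 0 (without WT 1) to 3 (without KO 2) when single libraries were left out. The count of other pathway genes, 0 in the primary model, was 0 to 2 when single libraries were left out. Of 150 member values under these alternatives, 132 kept their direction and side of the threshold, 10 passed it newly, 1 (Il2rb without WT 1) lost it, and 7 changed sign. The sign changed for Il2rg (0.17), Il15 (0.15) and Il15ra (0.16) with library totals, which moved the median of all genes to 0.39 (no filter, 0.24, and DESeq2, 0.26, also moved it), and on leaving out single libraries for Jak3 (-0.65 to 1.42), Il15ra (-0.81 to 0.18), Il4ra (-1.75 to 0.37) and Il15 (-0.48 to 0.026). The cause was not tested.

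The shared replicate numbers do not show that libraries were paired. The deviations of the libraries numbered 1 and 2 from their group means had a correlation of -0.18 between the groups over 11837 genes. With the replicate block 215 genes and 2 members, Il2rb and Il2ra, were past the threshold; with the numbers crossed, an alternative chosen after seeing the data, there were 647 genes, 3 members and 1 other pathway gene. Leaving a group with 1 library assumes that it varies like the other group. Thinning the counts kept all 36 shares among members within their intervals.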

Other observations

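Receptor chains for other cytokines gave a comparison for the family. Of 23 such chains 21 were tested, none was past the threshold in edgeR, and 7 had an unadjusted p under 0.05 (6 higher and 1 lower, where 13.7% of all genes tested had such a p, 9.44% higher and 4.23% lower). In DESeq2 3 of 22 were past the threshold (Il18r1, Il18rap and Il3ra), beside 374 of 21241 genes. Other settings with all 4 libraries also called some of the 21: 1 with library totals (Il18rap), 2 with the replicate block, 4 in the likelihood ratio test and 5 with the replicate numbers crossed. Over all 11837 genes these settings called 134, 215, 556 and 647. With no filter 5 of 22 chains were called, beside 583 of 21241 genes. The median log2 fold change was 0.01, and 11 of the 21 were above 0. Ifngr1 and Il10rb, the chains with the highest levels, had log2 fold changes of 0.61 (SE 0.44) and -0.78 (SE 0.45). The genes below were named after their values were seen. Il18rap, a chain of the IL-18 receptor on T and NK cells, had 6 and 7 counts in WT 1 and WT 2 and 164 and 92 in KO 1 and KO 2, with a log2 fold change of 3.72 (SE 0.68, edgeR adjusted p = 0.0522). Il18r1, the other chain of that receptor, had 0 counts in both libraries labeled WT and 44 and 21 in KO 1 and KO 2, and was at least 7.32-fold higher against 3 counts per library. Il3ra, the IL-3 receptor chain of basophils and dendritic cells, had 68.8 and 36.4 normalized CPM in WT 1 and WT 2 and 12.7 and 13.8 in KO 1 and KO 2, with a log2 fold change of -1.98 (SE 0.50, edgeR adjusted p = 0.140).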
